A study of Mus musculus with 10 samples.

Results

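CpG-dense stretches of the mouse genome are bordered by sequence in which CpGs thin out, and these borders, called shores here, were the regions examined. The genome was divided into 1-kb windows on the 19 autosomes, and a window with 60 or more CpG positions listed in any of 10 libraries was called dense. A shore was a window with under 60 listed positions that lay 1 or 2 windows from a dense one and held at least 3 positions with 10 or more reads in every library of the model compared. Of 1272584 windows with a listed position, 35762 lay within 2 windows of the 14232 dense windows. After the read filter 3127 were shores in the MLL-AF9 model, 2739 of them 1 window away and 388 of them 2 windows away, out of 27129 windows measured. In the cMyc-Bcl2 model 5668 were shores, 4745 of them 1 window away and 923 of them 2 windows away, out of 54108 windows measured. Both models together covered 5950 shores and shared 2845. The choice used only the number of positions and reads, not their methylation.

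The libraries came from reduced representation bisulfite sequencing of leukaemic mouse spleen cells, in which DNA is cut with MspI at CCGG and unmethylated cytosines are converted before sequencing. The MLL-AF9 model had 3 Dnmt3b-knockin and 3 WT libraries, all from c-kit+ cells. The cMyc-Bcl2 model had 2 Dnmt3b-knockin and 2 WT libraries, from leukaemic spleen cells with no c-kit selection in the labels. The knockin is described as tetracycline-inducible. The labels give neither its promoter nor the induction of each library, and they do not say whether libraries came from separate animals, so a p-value covers the spread of these libraries alone, which may be technical. Oncogene and c-kit selection cannot be told apart. Cell identity was not tested, since only methylation was measured, and a level is a mean over cells, so a shift within cells and a shift in the mix of cells cannot be told apart. The libraries held 14446933 to 46762220 read calls at CpG positions, with fewer in MLL-AF9. Some stood apart in their share of calls per chromosome relative to the median library: it was 1.35 on chromosome 16 in knockin replicate 1 and 1.3 on chromosome 15 in WT replicate 2 of cMyc-Bcl2, and 0.614 on chromosome X in knockin replicate 1 of MLL-AF9. Without chromosomes 15, 16 and 17 the shore difference over both models given further on was 4.41 points, and without that MLL-AF9 library it was 4.09 points, against 4.36 points with all.

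DNMT3B is a de novo DNA methyltransferase, an enzyme that adds methyl groups to CpGs that had none. CpG islands at promoters are mostly unmethylated in normal cells, while the CpG-poor rest of the genome is mostly methylated. The shore is where one state gives way to the other, and its methylation is known to vary between tissues and between normal and cancer cells.

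No reference genome of the build of the files, mm9, was used. Genes were named by fitting the spacing of CpGs in RefSeq promoter sequences (table of GRCm38.p6, 250 bases before to 50 bases after each start) to the listed mm9 positions, which placed 10562 of 31396 autosomal promoters from 9389 genes. The 16014 promoters with under 8 CpGs could not be placed. Placed promoters are thus CpG-rich by this choice, and promoters that were not placed may lie in or near a shore. A placed promoter start lay in 301 of the 2845 shores covered in both models. In 3 of the 301 (0.997%) all knockin libraries were higher than all WT libraries in each model, with mean differences of 10 points or more: the shores with C2cd4a, Tmem74b and Crtac1. This share was below the 2.59% of all windows covered in both models that gained so. The first 2 of these promoters are shown because they hold CpGs measured in the shore itself. That of C2cd4a holds all 8 measured positions of its shore. That of Tmem74b holds 6 positions measured in all 10 libraries, where its shore had 7 in MLL-AF9 and 14 in cMyc-Bcl2. The promoter of Sypl2 is shown because it lies in the dense window beside a shore that gained. Capitals mark CpGs with 10 or more reads in all 10 libraries, and sequences run 5′ to 3′ on the gene's strand. The C2cd4a sequence was placed at chr9:67680088-67680387 on the minus strand, Tmem74b at chr2:151527494-151527793 on the plus strand, and Sypl2 at chr3:108029468-108029767 on the minus strand (mm9).
C2cd4a: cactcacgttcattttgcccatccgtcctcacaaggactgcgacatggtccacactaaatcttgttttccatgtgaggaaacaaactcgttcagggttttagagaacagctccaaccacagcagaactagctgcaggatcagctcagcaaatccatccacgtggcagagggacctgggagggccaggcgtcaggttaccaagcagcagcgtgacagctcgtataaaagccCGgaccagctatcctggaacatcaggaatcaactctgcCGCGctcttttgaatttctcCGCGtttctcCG
Tmem74b: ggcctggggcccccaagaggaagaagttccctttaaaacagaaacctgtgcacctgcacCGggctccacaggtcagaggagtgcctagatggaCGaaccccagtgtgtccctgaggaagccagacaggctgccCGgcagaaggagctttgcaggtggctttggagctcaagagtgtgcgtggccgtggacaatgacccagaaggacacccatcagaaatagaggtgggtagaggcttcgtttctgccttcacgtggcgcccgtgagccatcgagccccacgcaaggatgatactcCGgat
Sypl2: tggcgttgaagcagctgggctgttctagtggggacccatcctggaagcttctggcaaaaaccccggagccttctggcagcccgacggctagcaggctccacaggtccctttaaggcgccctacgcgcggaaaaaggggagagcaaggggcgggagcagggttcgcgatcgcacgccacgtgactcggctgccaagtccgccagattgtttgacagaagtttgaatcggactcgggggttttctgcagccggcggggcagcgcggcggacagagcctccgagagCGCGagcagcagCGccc
The motif searched was CCGG, the MspI site, which reads the same on both strands. It occurs 1 time in the C2cd4a sequence, 3 times in Tmem74b and 2 times in Sypl2, and 52.8% of the 32851 promoters in the table hold it. In C2cd4a the 6 measured CpGs all lie at or after that single site.

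The 8 measured positions of the C2cd4a promoter, counted on either strand, were the whole measured shore. They were methylated at 47.1, 10.9 and 8.32% in the MLL-AF9 knockin libraries, against 6.29, 6.89 and 7.32% in WT. In cMyc-Bcl2 the levels were 18.9 and 27.8% in knockin, against 6.28 and 4.79% in WT. The groups did not overlap in either model, but knockin replicate 1 stood far above the other 2 knockin libraries in MLL-AF9. The dense window beside it changed little, with 1.33 ± 0.502% in knockin and 1.43 ± 0.727% in WT (SD, n = 3 each) in MLL-AF9, and 1.99 ± 1.51% in knockin and 1.90 ± 0.840% in WT (SD, n = 2 each) in cMyc-Bcl2. At Tmem74b the shore was at 21.6, 12.6 and 12.2% in MLL-AF9 knockin libraries, against 7.29, 5.99 and 2.95% in WT, and at 10.6 and 26.2% in cMyc-Bcl2 knockin libraries, against 9.92 and 1.55% in WT. Of the positions inside its printed promoter, knockin replicate 1 of cMyc-Bcl2, at 14.4%, lay below WT replicate 1, at 15.6%. Its dense window was at 4.22 ± 1.12% in knockin and 3.29 ± 1.19% in WT in MLL-AF9, and at 9.03 ± 0.665% in knockin and 3.46 ± 1.53% in WT in cMyc-Bcl2. The shore with the start of Crtac1, which encodes an extracellular cartilage protein, was at 28.3, 30.5 and 23.7% in MLL-AF9 knockin libraries, against 12.5, 3.28 and 9.33% in WT. The cMyc-Bcl2 levels were 49.9 and 35.7% in knockin, against 19 and 18.4% in WT. The dense window beside Crtac1 was higher as well, at 13.7 ± 4.31% in knockin and 5.50 ± 3.05% in WT in MLL-AF9, and at 28.9 ± 4.89% in knockin and 6.87 ± 2.57% in WT in cMyc-Bcl2.

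Shores as a group were more methylated in knockin than in WT leukaemias in both models, and no knockin library overlapped the WT libraries of its model. In MLL-AF9 the mean over shores was 19.7, 19 and 17.3% in the knockin libraries, against 14.9, 15.9 and 14.4% in WT. In cMyc-Bcl2 it was 26.6 and 25.3% in knockin, against 21.2 and 20.4% in WT. The difference was 3.60 points in MLL-AF9, while it was 5.13 points in cMyc-Bcl2. An exact two-sided permutation test gave p = 0.1 for 3 against 3 libraries and p = 0.333 for 2 against 2, the smallest each design allows. Over both models, with labels permuted within oncogene, the mean difference was 4.36 points (exact permutation p = 0.0167, the smallest that 120 arrangements give; Benjamini-Hochberg adjusted p = 0.0238 over 40 such tests). Among positions with 20 or more reads, only 546 MLL-AF9 shores were left and their difference was 1.17 points.

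Shores 2 windows away had higher levels and larger differences than shores 1 window away, though the gap between the distances was not tested. In MLL-AF9, shores 1 window away were at 14.95, 14.2 and 12.7% in the knockin libraries, against 10.7, 11.7 and 10.3% in WT. Shores 2 windows away were at 53.5, 53.1 and 49.3% in knockin, against 44.5, 45.6 and 43.4% in WT. The groups did not overlap at either distance, with differences of 3.05 and 7.47 points. Dense windows themselves were at 6.88, 6.57 and 5.48% in knockin, against 4.75, 5.54 and 4.62% in WT, where the third knockin library lay below the second WT library. That difference was 1.34 points (exact permutation p = 0.2).

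In cMyc-Bcl2 the same distances gave 20.6 and 19.3% in knockin, against 15.5 and 14.4% in WT, for shores 1 window away. Shores 2 windows away were at 57.2 and 56.2% in knockin, against 50.6 and 51.1% in WT. Dense windows were at 10.7 and 9.85% in knockin, against 7.18 and 5.87% in WT. The differences were 4.98, 5.88 and 3.76 points for 1 window away, 2 windows away and the dense windows, and the groups did not overlap in any of the 3. Over both models the difference was 4.01 points at 1 window and 6.68 points at 2 windows (exact permutation p = 0.0167 for each), and 2.55 points in dense windows (p = 0.0333, exact permutation). Farther out it was 5.07 points at 3 to 10 windows and 3.53 points beyond 10 windows, and here the models ran in opposite orders by value. In MLL-AF9 these windows differed by 5.96 and 4.92 points, more than the 3.60 points of all shores. In cMyc-Bcl2 they differed by 4.18 and 2.14 points, less than the 5.13 points of all shores.

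**Figure D1:**
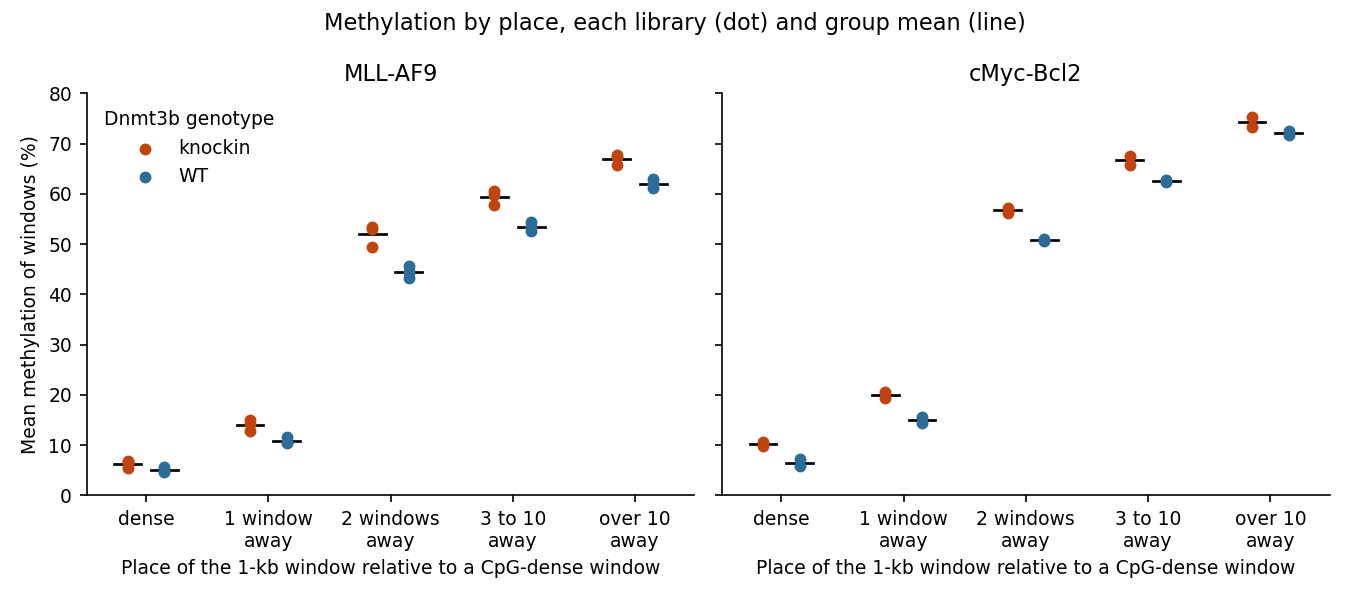
Mean methylation of 1-kb windows (y axis, percent) by place relative to a CpG-dense window (x axis), for MLL-AF9 (left) and cMyc-Bcl2 (right). Each dot is a library, knockin left of WT, and each line a group mean; at 2 windows away the MLL-AF9 knockin libraries lie between 49.3 and 53.5%, above all WT libraries.

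At finer scale, methylation climbed within the first 1000 bp outside the edge of the dense window. In MLL-AF9, positions within 250 bp of the edge averaged 7.56 ± 0.825% in knockin and 5.83 ± 0.534% in WT (SD, n = 3 each; 18501 positions). At 500 to 750 bp they averaged 33.7 ± 2.0% in knockin and 27.3 ± 1.48% in WT (1294 positions), and at 1500 to 1750 bp 52.1 ± 2.36% in knockin and 44.3 ± 1.34% in WT (620 positions). The difference was thus 1.73, 6.43 and 7.81 points at these distances. Most measured positions lay in the first bin, while a shore mean gives each window the same weight. In cMyc-Bcl2, positions within 250 bp averaged 11.8 ± 0.680% in knockin and 7.85 ± 0.959% in WT (SD, n = 2 each; 32992 positions). The difference there was 4.0 points, it was 8.05 points at 750 to 1000 bp, and it was 4.06 points at 2250 to 2500 bp.

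**Figure D2:**
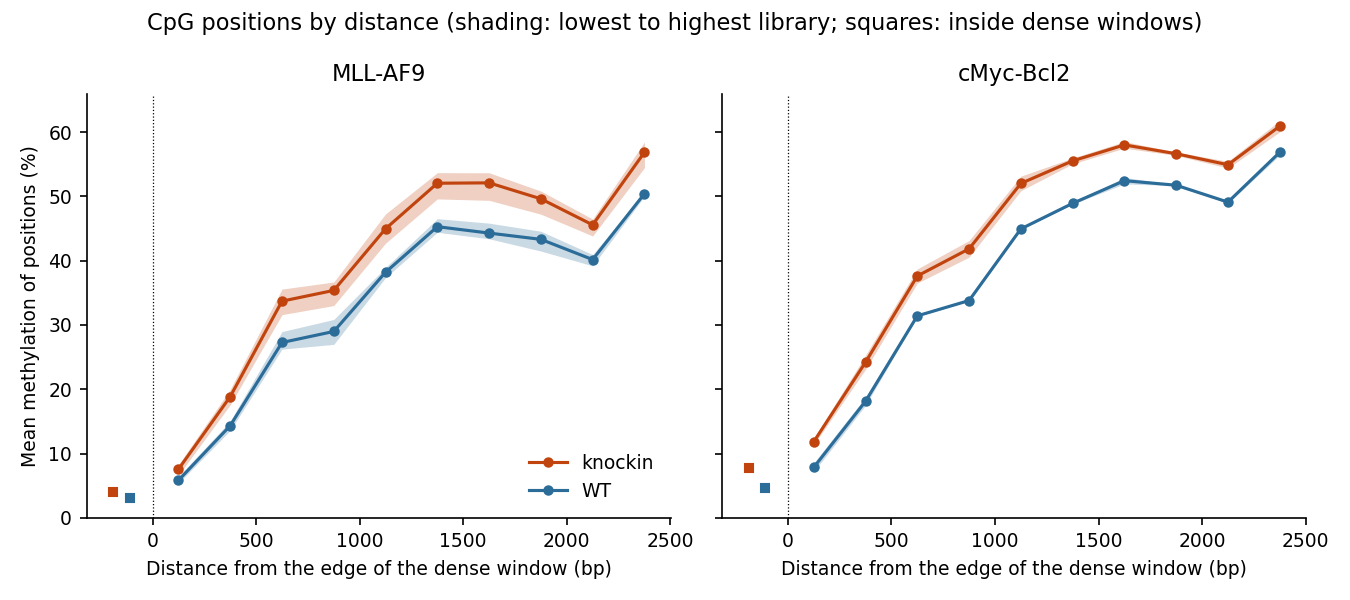
Mean methylation of CpG positions (y axis, percent) in 250-bp bins by distance from the edge of the nearest dense window (x axis, bp), with positions inside dense windows as squares. Lines are group means and shading runs from the lowest to the highest library; in both models the knockin line stays above the WT line in every bin out to 2500 bp.

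The cut at 60 positions did not mark a step. Shores with 50 to 59 listed positions averaged 9.46 ± 0.991% in knockin and 6.94 ± 0.725% in WT in MLL-AF9 (SD, n = 3 each; 658 windows), and dense windows with 60 to 69 positions averaged 11.5 ± 1.07% in knockin and 9.18 ± 0.880% in WT (1450 windows). On the outer side, windows 3 away averaged 55.1 ± 1.88% in knockin and 48.8 ± 0.767% in WT (316 windows), close to the levels at 2 windows. In cMyc-Bcl2 the differences were 4.75 points for shores with 50 to 59 positions, 4.98 points for dense windows with 60 to 69 and 5.14 points for windows 3 away.

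Shores were then sorted by the level that WT leukaemias of the opposite model had there, a value not used in the difference. This could be done for shores with at least 3 positions that had 10 or more reads in every WT library of the opposite model. The classes therefore leave out part of the shores of each model. The largest differences were at intermediate levels. In the class at 20 to 80%, MLL-AF9 knockin libraries were at 51.1, 48.8 and 44.1%, against 36.8, 40.9 and 35.6% in WT, over 385 shores. In cMyc-Bcl2, knockin libraries were at 58.1 and 54.2%, against 43.9 and 41.9% in WT, over 344 shores. The groups did not overlap, with differences of 10.2 and 13.3 points and 11.7 points over both models (exact permutation p = 0.0167).

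Shores at 5 to under 20% followed. In MLL-AF9 665 of them were at 18.6, 16.1 and 12.9% in knockin, against 9.28, 11.6 and 8.47% in WT, and in cMyc-Bcl2 543 were at 26.7 and 24.8% in knockin, against 14.2 and 12.0% in WT. Their gain was 6.06 points in MLL-AF9, 12.7 points in cMyc-Bcl2 and 9.37 points over both models (exact permutation p = 0.0167). Shores under 5% gained little, by 0.927 points over both models (exact permutation p = 0.0167, adjusted p = 0.0238 over 40 tests). In MLL-AF9 1677 of them averaged 2.66 ± 0.291% in knockin and 1.87 ± 0.0727% in WT (SD, n = 3 each), and in cMyc-Bcl2 1871 averaged 4.03 ± 0.190% in knockin and 2.96 ± 0.570% in WT (SD, n = 2 each). These levels are near the methylated call rate of the mitochondrial genome, a guide to unconverted cytosines, which was 2.57, 3.20 and 2.01% in the MLL-AF9 knockin libraries, against 1.82, 2.42 and 2.59% in WT. It was 0.926 and 1.15% in cMyc-Bcl2 knockin libraries, against 2.22 and 0.910% in WT. Dense windows under 5% averaged 1.35% in the MLL-AF9 WT libraries, below their mitochondrial rates, so the rate can overstate unconverted cytosines. With levels corrected for this rate the class difference over both models was 1.45 points, against 0.927 points as deposited. Correction left the mean over all shores at 4.51 points.

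Differences were smaller again in shores over 80%. In MLL-AF9 214 of them averaged 92.8 ± 0.670% in knockin and 88.1 ± 1.10% in WT (SD, n = 3 each). In cMyc-Bcl2 203 averaged 89.2 ± 1.11% in knockin and 88.3 ± 0.227% in WT (SD, n = 2 each), where the groups overlapped. Over both models the difference was 2.77 points (exact permutation p = 0.0333).

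Within the 20 to 80% class the gain by distance ran in opposite orders in the 2 models, but no difference between the models passed its test. In MLL-AF9 the gain was 7.14 points in dense windows, 9.65 points in shores 1 window away and 11.8 points in shores 2 windows away. In cMyc-Bcl2 it was 20.1, 14.4 and 9.94 points at the same places. Measured on windows covered in all 10 libraries, the gain of intermediate dense windows was 5.39 points in MLL-AF9, while it was 20.1 points in cMyc-Bcl2, a difference of -14.7 points (exact permutation of oncogene labels within genotype, p = 0.07). For shores of this class the gains were 10.2 and 11.3 points, a difference of -1.07 points (exact permutation p = 0.79). For all shores they were 3.36 points in MLL-AF9, with 4.37 points in cMyc-Bcl2 (exact permutation p = 0.53). Permuting oncogene labels within genotype needs like levels in the 2 models within a genotype, which was not tested. These p-values therefore cannot decide whether the gains differ between the models.

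**Figure D3:**
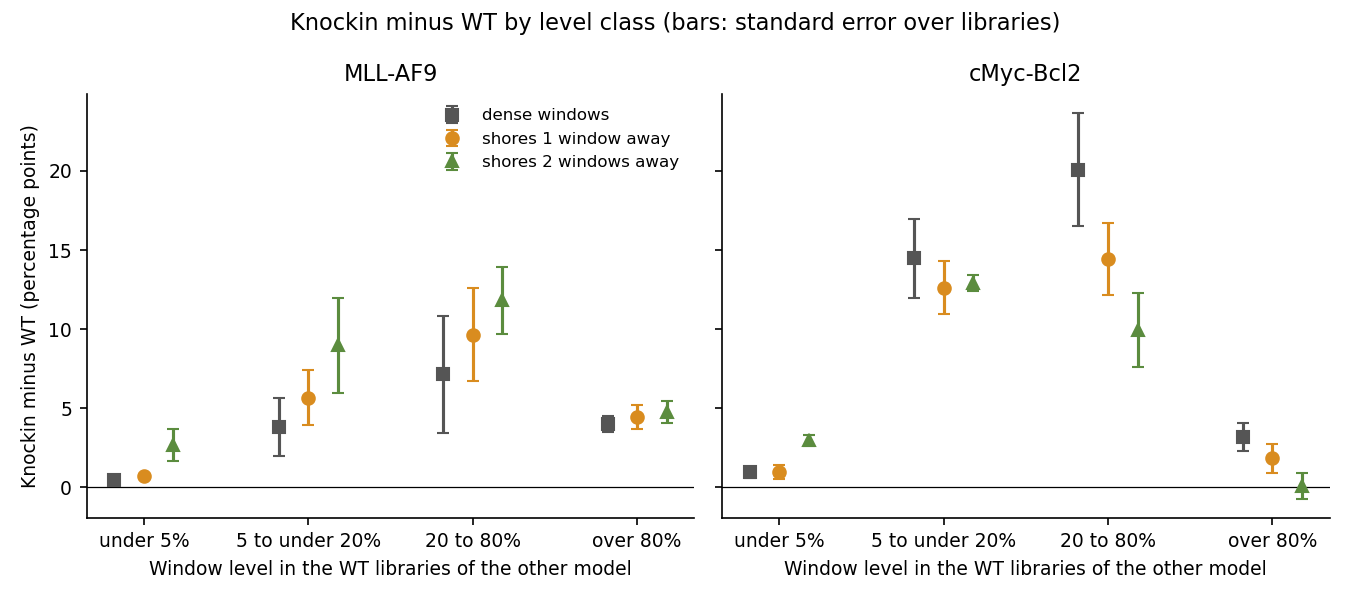
Knockin minus WT methylation (y axis, percentage points) by the level of the window in the WT libraries of the other model (x axis), for dense windows, shores 1 window away and shores 2 windows away. Points are differences of group means and bars are standard errors over libraries; at 20 to 80% the order by distance runs from 7.14 to 11.8 points outward in MLL-AF9 and from 20.1 to 9.94 points outward in cMyc-Bcl2.

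The shift also showed in the share of shores in each state. The share under 20% was 74.4 ± 2.40% in knockin and 80.4 ± 1.25% in WT in MLL-AF9 (SD, n = 3 each), and 61.4 ± 1.88% in knockin and 72.2 ± 0.986% in WT in cMyc-Bcl2 (SD, n = 2 each). The share at 20 to 80% was 15.8 ± 1.86% in knockin and 11.9 ± 0.798% in WT in MLL-AF9, and 25.1 ± 1.48% in knockin and 16.7 ± 0.911% in WT in cMyc-Bcl2. The share over 80% was 9.84 ± 0.573% in knockin and 7.77 ± 0.515% in WT in MLL-AF9, and 13.6 ± 0.399% in knockin and 11.1 ± 0.0749% in WT in cMyc-Bcl2. Over both models these shares changed by -8.43, 6.17 and 2.26 points (exact permutation p = 0.0167 for each).

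Each shore was set against its own nearest dense window where that was covered. Over 2669 pairs in MLL-AF9, the shore exceeded its dense window by 11.7, 11.5 and 11 points in the knockin libraries, against 9.52, 9.42 and 9.16 points in WT. Over 5471 pairs in cMyc-Bcl2 it did so by 14.2 and 13.9 points in knockin, against 13.0 and 13.5 points in WT. The step between a shore and its dense window was larger in every knockin library than in every WT library of the same model, and the step widened by 2.04 points in MLL-AF9. In cMyc-Bcl2 it widened by 0.794 points. Over both models this was 1.41 points (exact permutation p = 0.0167). Pairs 1 window apart differed by 1.62 points in MLL-AF9, 0.890 points in cMyc-Bcl2 and 1.25 points over both (exact permutation p = 0.0167). Pairs 2 windows apart differed by 5.24 points in MLL-AF9 but 0.292 points in cMyc-Bcl2, where the groups overlapped, and by 2.77 points over both (exact permutation p = 0.05, adjusted p = 0.0625 over 40 tests). Between the models, on 2111 shared pairs, the widening was 1.89 points in MLL-AF9, while it was 0.582 points in cMyc-Bcl2 (exact permutation p = 0.03, adjusted p = 0.233 over 10 tests). The limit given above for the test between models holds here as well.

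The pairs were split by the class of each member. Beside dense windows under 5%, shores at 20 to 80% exceeded them by 45.6 ± 2.74 points in knockin and 35.6 ± 2.01 points in WT in MLL-AF9 (SD, n = 3 each; 177 pairs). In cMyc-Bcl2 this was 50.2 ± 1.20 points in knockin and 43.6 ± 0.413 points in WT (SD, n = 2 each; 162 pairs), and the step widened by 8.31 points over both models (exact permutation p = 0.0167). Beside dense windows at 20 to 80%, the shore exceeded its dense window by 3.89 ± 3.21 points in knockin and 6.28 ± 2.48 points in WT in MLL-AF9 (91 pairs). In cMyc-Bcl2 it did so by 1.99 ± 1.38 points in knockin and 8.56 ± 2.22 points in WT (193 pairs). There the step changed by -4.48 points over both models (exact permutation p = 0.0667), which did not pass 0.05.

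Shores were also set against windows of like class that had no dense window near them. These lay more than 10 windows from any dense window. They shared the shore's WT level class and its density class, under 20 or 20 to 59 listed positions. Levels within a class were not alike. At 20 to 80% far windows averaged 52.2% and shores 37.8% in MLL-AF9 WT libraries, and 58.3 and 42.9% in cMyc-Bcl2. The part of this in the values below was not tested. Against these windows, shores differed by -2.04 ± 0.158 points in knockin and -2.24 ± 0.0593 points in WT in MLL-AF9 (SD, n = 3 each). In cMyc-Bcl2 they differed by -2.98 ± 0.243 points in knockin and -3.64 ± 0.801 points in WT (SD, n = 2 each). The gain of shores beyond that of such windows was 0.431 points over both models, which did not pass 0.05 (exact permutation p = 0.0667). By class it was 0.886 points at 5 to under 20% (exact permutation p = 0.0333, adjusted p = 0.0444 over 40 tests) and 0.912 points over 80% (exact permutation p = 0.0167, adjusted p = 0.0238), both of which passed. It was -0.0589 points under 5% (exact permutation p = 0.633) and 1.94 points at 20 to 80% (exact permutation p = 0.217). The call over all classes depends on 1 library: without WT replicate 1 of cMyc-Bcl2 the value was 0.715 points with p = 0.0167, exact permutation.

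Among single shores, gains far outnumbered losses. In MLL-AF9 257 of 3127 shores (8.22%) had every knockin library above every WT library with a mean difference of 10 points or more, where 7.07% of all windows measured did. Only 3 shores were lower by the same measure, where 0.17% of all windows were. In cMyc-Bcl2 1059 of 5668 shores (18.7%) were higher, where 13% of all windows were, and 89 (1.57%) were lower, where 2.76% of all windows were. A higher knockin mean was seen in 75.1% of MLL-AF9 shores and 57.7% of cMyc-Bcl2 shores, where 74.7 and 53.8% of all windows had one. The shares of shores lay close to those of all windows in MLL-AF9 and above them for gains in cMyc-Bcl2.

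Few dense windows beside gained shores gained in MLL-AF9, and about as many did as did not in cMyc-Bcl2. In MLL-AF9 the dense window also gained in 15 of the 216 pairs whose shore gained (6.94%), and in 1.79% of the other pairs. In cMyc-Bcl2 it did so in 484 of 1017 (47.6%), and in 9.61% of the other pairs. The median difference of the dense window beside a gained shore was 0.936 points in MLL-AF9, while it was 10.1 points in cMyc-Bcl2. By the same measure 2.27% of all dense windows gained in MLL-AF9 and 13.8% in cMyc-Bcl2. Lack of overlap is easier to reach with 2 libraries per group than with 3, so these counts are not alike between the models. The difference between the models in them was not tested. Where both sides of a run of dense windows were covered, both sides gained in 2 of 151 runs in MLL-AF9, 1 side gained in 33 and neither in 116. In cMyc-Bcl2 both sides gained in 44 of 456 runs, 1 side in 124 and neither in 288. Of all shores 1 window away, 6.86% gained in MLL-AF9 and 17.6% in cMyc-Bcl2, where 7.07 and 13% of all windows did. Whether the 2 sides gained together more often than these shares give was not tested.

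**Figure D4:**
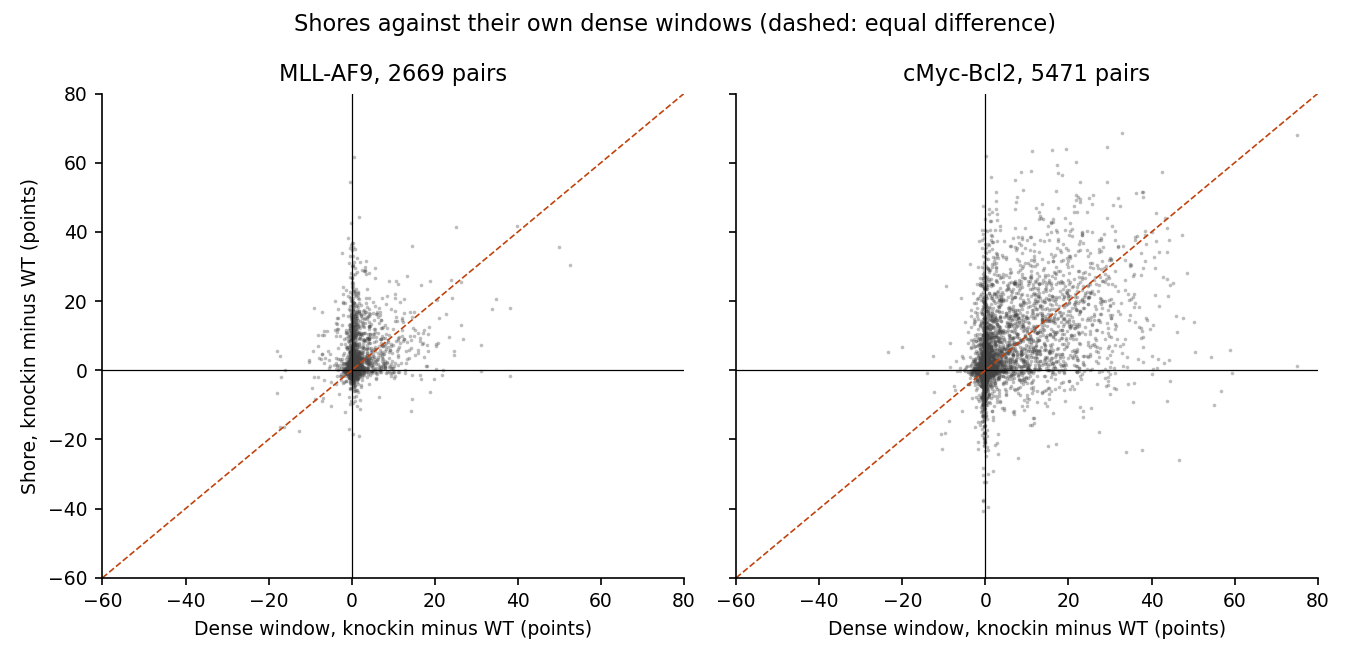
Knockin minus WT (percentage points) of each shore (y axis) against that of its own dense window (x axis), with each point a pair and the dashed line marking equal differences; MLL-AF9 has 2669 pairs and cMyc-Bcl2 5471. In MLL-AF9 most gained shores stand over a dense window near 0, with a median of 0.936 points, and in cMyc-Bcl2 many lie to the right, with a median of 10.1 points.

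Differences were larger beside longer dense runs, which was not tested. In MLL-AF9 the difference was 3.25 points beside a single dense window (2589 shores), 5.15 points beside a run of 2 (450) and 5.77 points beside a run of 3 or more (88). In cMyc-Bcl2 it was 4.73 points (4604 shores), 6.71 points (881) and 7.41 points (183). Shores of longer runs also started higher, at 14.2, 19.4 and 18.3% in the MLL-AF9 WT libraries, and the part of level in this order was not tested. On every one of the 19 autosomes the knockin mean was the higher one in both models. It ran from 2.53 points on chromosome 16 to 4.77 points on chromosome 17 in MLL-AF9 and from 3.21 points on chromosome 17 to 6.45 points on chromosome 12 in cMyc-Bcl2.

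The gain of shores upstream of placed promoters was not shown to differ from that of shores downstream. In MLL-AF9, 546 upstream shores averaged 14.6 ± 1.18% in knockin and 11.8 ± 0.310% in WT, and 691 downstream shores averaged 17.1 ± 1.11% in knockin and 13.3 ± 0.504% in WT (SD, n = 3 each). In cMyc-Bcl2, 959 upstream shores averaged 21.7 ± 0.698% in knockin and 18.1 ± 0.239% in WT, and 1251 downstream shores averaged 21.6 ± 0.825% in knockin and 18.1 ± 0.487% in WT (SD, n = 2 each). The upstream minus downstream gain was -0.414 points over both models (exact permutation p = 0.1). Shores that hold a placed start were low and had smaller differences, with 5.90 ± 0.464% in knockin and 4.54 ± 0.178% in WT over 330 shores in MLL-AF9, and 9.28 ± 0.499% in knockin and 6.31 ± 0.827% in WT over 500 shores in cMyc-Bcl2.

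Of the 2845 shores covered in both models, 105 (3.69%) gained without overlap in each, where 2.59% of all windows covered in both did. They were 47.7% of the 220 that gained in MLL-AF9 and 22.7% of the 462 that gained in cMyc-Bcl2. None of the 2845 was lower by this measure in both models, and 1 of 24722 windows of all kinds was. A placed promoter lay within 2 windows of 48 of the 105 (45.7%), and of 1632 of all 2845 (57.4%).

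Fits of single windows that used the libraries of 1 model alone called few shores. A quasi-binomial logistic fit with dispersions moderated by limma, with Benjamini-Hochberg adjustment over all windows and a minimum of 10 points, called 1 shore higher in MLL-AF9 and 0 lower, where 0.0479% of all windows were called higher and 0.00369% lower. At an unadjusted p under 0.05, 443 MLL-AF9 shores differed (14.2%), 429 of them higher, where 14.1% of all windows differed. In cMyc-Bcl2 it called 0 of 5668 either way, where 0.00185% of all windows were called higher. At an unadjusted p under 0.05, 950 cMyc-Bcl2 shores differed (16.8%), 837 of them higher, where 13.2% of all windows did. On M-values limma called 0 shores in either model. The cMyc-Bcl2 count depends on the fit. With the 4 groups in one fit, on 2601 shores read in all 10 libraries, 172 were called higher in cMyc-Bcl2 and 12 lower. That fit called 0 higher in MLL-AF9, and its share over all windows was not counted. With both models in one additive fit, which used positions read in all 10 libraries, 109 of 2601 shores (4.19%) were called higher and 0 lower, where 3.5% of all windows were called higher and 0.0175% lower, so the share in shores was close to that of all windows. At an unadjusted p under 0.05 this fit had 562 shores (21.6%), 534 of them higher, where 19.3% of all windows passed. On M-values limma called 4 shores, where it called 0.105% of all windows higher. The 109 comprised 88 shores 1 window away (3.85% of those tested) and 21 shores 2 windows away (6.69%). The knockin mean was higher in both models in 108 of them, and the libraries did not overlap in either model in 77. Their median difference was 14.3 points in MLL-AF9, while it was 25.8 points in cMyc-Bcl2. The 109 were chosen on these same values, so their direction, lack of overlap and size are in part set by that choice. A dense window was covered beside 88 of the 109, and it was itself called higher at 13. The count rests on 1 library in part: without WT replicate 2 of cMyc-Bcl2 it was 7, without MLL-AF9 knockin replicates 1 and 2 it was 67 and 61, and at 20 reads it was 2. The fit of the interaction called 1 of 2601 shores, with the larger gain in cMyc-Bcl2, where 0.0175% of all windows were called that way.

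The shore called in MLL-AF9 lies at chr12:112998179-112998256, beside a dense window that holds the promoter of Klc1, the light chain of the motor protein kinesin. Its 4 measured positions were at 65.2, 71.0 and 59% in the knockin libraries, against 11.9, 14.7 and 5.51% in WT, with 68 to 151 reads per library. The groups lay far apart, with 65.1 ± 6.03% in knockin and 10.7 ± 4.69% in WT (SD, n = 3 each), and the limma-moderated adjusted p was 0.026. The dense window stayed at 0.510, 0.478 and 1.10% in the MLL-AF9 knockin libraries, against 0.670, 1.13 and 1.34% in WT. In cMyc-Bcl2 the dense window was at 0.781 and 0.324% in knockin, against 0.513 and 0.676% in WT. The shore fell short of the read filter in cMyc-Bcl2, and the call was lost without any single one of the 6 libraries.

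A further 6 gains were named by rule, as those with the largest smaller difference of the 2 models. They came from 109 of 1678 shores with at least 5 positions in all 10 libraries, the 109 being higher without overlap in both models. No 10-point minimum was set here, and the share over all windows was not counted. This set is defined otherwise than the 109 of the additive fit. At chr6:91636081-91636166, 2 windows from a dense window and with no placed promoter near it, MLL-AF9 knockin libraries were at 85.9, 77.5 and 66.3%, against 54.5, 24.4 and 40.6% in WT. In cMyc-Bcl2 the levels were 77.2 and 62.6% in knockin, against 55.8 and 23.5% in WT. The WT libraries varied widely, yet every knockin library was higher, by means of 36.7 and 30.3 points (additive fit, limma-moderated adjusted p = 0.0323). The dense window of that shore was at 0.598 ± 0.231% in knockin and 0.608 ± 0.653% in WT in MLL-AF9, and at 0.801 ± 0.103% in knockin and 0.335 ± 0.194% in WT in cMyc-Bcl2.

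At chr3:108028757-108028801 the shore lies next to the dense window with the Sypl2 promoter printed above. Sypl2 encodes a synaptophysin-like membrane protein known from muscle. The shore was at 69.2, 81.1 and 55.2% in MLL-AF9 knockin libraries, against 39.2, 38.1 and 34.3% in WT, and at 63.3 and 92.8% in cMyc-Bcl2 knockin libraries, against 55.7 and 40.0% in WT (additive fit, limma-moderated adjusted p = 0.0448). All knockin libraries were above all WT libraries. The 3 measured CpGs of the printed promoter stayed low, at 2.48 ± 1.75% in knockin and 0.347 ± 0.601% in WT in MLL-AF9, and at 4.70 ± 2.19% in knockin and 1.40 ± 1.98% in WT in cMyc-Bcl2. The whole dense window was at 4.53 ± 1.27% in knockin and 2.62 ± 1.78% in WT in MLL-AF9, and at 19.3 ± 0.495% in knockin and 4.29 ± 2.94% in WT in cMyc-Bcl2.

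At chr4:41515447-41515525, beside the dense window with the promoter of Dnaic1, a dynein chain of motile cilia, the shore was at 74.5, 85.1 and 85.5% in MLL-AF9 knockin libraries, against 61.8, 73.4 and 33.7% in WT. The cMyc-Bcl2 levels were 96.5 and 97.2% in knockin, against 57.8 and 83.9% in WT. The highest WT library of MLL-AF9 came close to the lowest knockin library, and the additive fit gave a limma-moderated adjusted p of 0.0506. The dense window was at 1.32 ± 0.363% in knockin and 1.17 ± 0.432% in WT in MLL-AF9, and at 1.23 ± 0.678% in knockin and 0.750 ± 0.102% in WT in cMyc-Bcl2.

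At chr3:34547783-34547826 the shore lies upstream of Sox2, which encodes a transcription factor of pluripotent and neural stem cells. It was at 51.5, 38.5 and 28.9% in MLL-AF9 knockin libraries, against 25, 5.0 and 16.3% in WT, and at 51.1 and 31.1% in cMyc-Bcl2 knockin libraries, against 11.1 and 15.5% in WT (additive fit, limma-moderated adjusted p = 0.0248). A second shore on the downstream side of Sox2, in the window at chr3:34550001-34551000, was named after its values were seen. It was at 40.0, 31.5 and 18.2% in MLL-AF9 knockin libraries, against 3.33, 17.4 and 15.2% in WT, from 30 to 69 reads, and at 45.2 and 50.6% in cMyc-Bcl2 knockin libraries, against 20.2 and 16.1% in WT. Both sides of this dense run were higher in every knockin library. The dense windows between them passed the read filter in cMyc-Bcl2 only, and they were higher too. The window beside the upstream shore was at 26.9 ± 10.4% in knockin and 9.86 ± 7.74% in WT, and the window beside the downstream shore was at 34.5 ± 7.16% in knockin and 9.39 ± 2.98% in WT (SD, n = 2 each).

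Of the other 2 gains, neither had a placed promoter, and in both the dense window moved as well in cMyc-Bcl2. At chr12:85910887-85910970 the shore was at 61.8, 29.2 and 30.9% in MLL-AF9 knockin libraries, against 24.0, 10.9 and 6.82% in WT, and at 59.95 and 78.2% in cMyc-Bcl2 knockin libraries, against 29.8 and 15.2% in WT. Its dense window was at 27.3 ± 7.08% in knockin and 19.1 ± 13.5% in WT in MLL-AF9, and at 47.6 ± 15.8% in knockin and 17.2 ± 14% in WT in cMyc-Bcl2. At chr5:113920021-113920082 the shore was at 35.1, 43.4 and 10.8% in MLL-AF9 knockin libraries, against 8.20, 6.45 and 4.19% in WT, and at 48.3 and 58.1% in cMyc-Bcl2 knockin libraries, against 10.5 and 7.95% in WT. The third MLL-AF9 knockin library stood close to the WT level. Their limma-moderated adjusted p in the additive fit was 0.0189 and 0.0149.

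**Figure D5:**
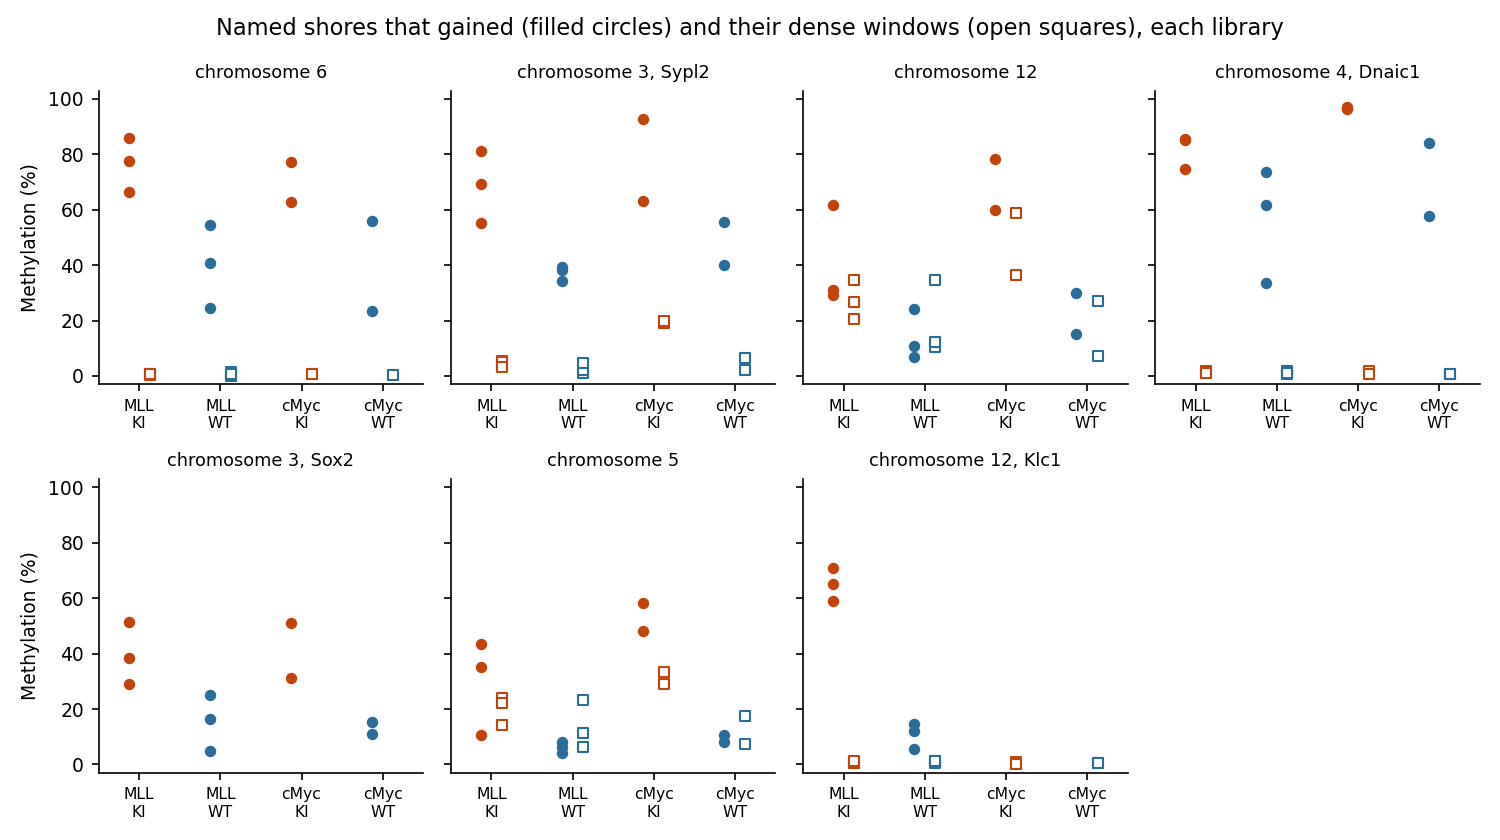
Methylation (y axis, percent) of the 7 named shores that gained (filled circles) and of their dense windows (open squares), each point a library, with knockin (KI) left of WT in each model. The Klc1 shore was measured in MLL-AF9 only and the dense window beside Sox2 is not drawn, since it passed the read filter in cMyc-Bcl2 only; the dense windows at chromosome 6, Dnaic1 and Klc1 stay under 2% in all libraries.

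The 3 named losses were small. They were the largest of 6 among the same 1678 shores that were lower without overlap in both models. The share over all windows was not counted. At chr8:73989305-73989398, near Abhd8, the shore averaged 1.27 ± 0.669% in knockin and 2.95 ± 0.921% in WT in MLL-AF9 (SD, n = 3 each), and 1.25 ± 0.486% in knockin and 5.04 ± 4.49% in WT in cMyc-Bcl2 (SD, n = 2 each). At chr7:3645171-3645262, near Mboat7, an acyltransferase of phosphatidylinositol, it averaged 0.720 ± 0.315% in knockin and 1.65 ± 0.437% in WT in MLL-AF9. At chr5:115957011-115957065 it averaged 0.163 ± 0.283% in knockin and 1.19 ± 0.593% in WT in MLL-AF9. Apart from the cMyc-Bcl2 WT mean on chromosome 8, these levels were under the highest mitochondrial call rate of 3.20%, and their limma-moderated adjusted p in the additive fit was 0.157 to 0.230.

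Further shores of the 105, beside promoters of known regulators, were chosen after their values were seen and serve as examples only. At Tnfrsf11a, the receptor RANK that drives osteoclast formation, the shore in the window chr1:107678001-107679000 was at 61.5, 64.9 and 53.3% in MLL-AF9 knockin libraries, against 49.7, 9.23 and 23.1% in WT. The cMyc-Bcl2 levels were 90.2 and 66.3% in knockin, against 53.3 and 28.7% in WT. Its dense window stayed at 2.72 ± 1.25% in knockin and 1.40 ± 0.865% in WT in MLL-AF9, and at 1.5 ± 0.415% in knockin and 2.98 ± 0.442% in WT in cMyc-Bcl2. At Pax5, the transcription factor that commits cells to the B lineage, the shore upstream, in the window chr4:44724001-44725000, was at 17.6, 25 and 17.7% in MLL-AF9 knockin libraries, against 15.6, 3.88 and 2.37% in WT. In cMyc-Bcl2 it was at 37.1 and 17.4% in knockin, against 6.46 and 3.35% in WT. The dense window beside Pax5 was at 5.76 ± 1.75% in knockin and 5.21 ± 4.61% in WT in MLL-AF9, and at 20.5 ± 5.69% in knockin and 8.71 ± 9.58% in WT in cMyc-Bcl2. At Klf15, a zinc-finger transcription factor of metabolism, the shore in the window chr6:90413001-90414000 was at 32.3, 32.0 and 14.2% in MLL-AF9 knockin libraries, against 11.9, 10.7 and 4.72% in WT. The cMyc-Bcl2 levels were 18.0 and 28.7% in knockin, against 7.23 and 17.5% in WT, where the closest libraries of the groups were under 1 point apart. Its dense window was at 8.12 ± 0.395% in knockin and 6.44 ± 4.22% in WT in MLL-AF9, and at 9.12 ± 3.28% in knockin and 5.04 ± 2.40% in WT in cMyc-Bcl2.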

How the data were processed

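DNA of leukaemic mouse spleen cells was cut with MspI, size-selected, bisulfite converted and sequenced, per the labels' protocols. The submitters' processing notes name build mm9 and CASAVA, Trim Galore 0.2.2 for trimming, methylKit and Bismark 0.7.4, with settings not given in the sources used here. The deposited files give, per CpG position, 2 whole-number counts of reads. The first was read as methylated, because mitochondrial positions then read as methylated in 0.910 to 3.20% of calls. The strands of a CpG are often listed apart, so counts are of positions, and an alternative joined them with dense at 35 or more sites.

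A window's level is the unweighted mean over its positions that pass the 10-read filter in all libraries of the model. Group differences were tested by exact two-sided permutation of 1 value per library. Between models, oncogene labels were permuted within genotype. That is an exact test of a difference in the knockin effect only where the models have like levels within a genotype. Reads summed per window were fitted with a quasi-binomial model and tested by F, with adjustment over all windows after Benjamini and Hochberg. The dispersion was never below 1 and was moderated by limma 3.58.1 (R 4.3.3). The fits were tested on simulated data. There the false calls lay in windows close to 0 or full methylation, and unadjusted counts ran high. The 10-point minimum was not applied to the simulated calls. The same extra spread between libraries was set for every simulated window, unlike in the data. Python 3.11.15, numpy 2.4.6, pandas 2.3.3 and scipy 1.17.1 did the rest. Reads without molecular identifiers are not independent molecules.

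Regions were named by rule: 6 gains and 3 losses without overlap in either model, ranked by the smaller difference, and calls of each model's fit. Promoters were placed by CpG spacing and a single place, and 22 of 10584 (0.208%) were dropped as out of gene order. This placing, the splits by run length and by side, and the counts of pairs were added after seeing the data. The members and lists were chosen with earlier results of these data known. Alternatives were a filter of 20 or 5 reads, other weights, dense windows at 40 or 80, a shifted grid, at least 5 positions, windows covered in all 10 libraries, mitochondrial correction, chromosomes left out, classes from the same model, limma on M-values, 1 fit of 4 groups, other thresholds and each library left out.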

Additional observations from a re-analysis of the deposited data

Results flagged for a closer look

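The widening of the step between a shore and its own dense window differed between the models at an unadjusted p under 0.05, but not after adjustment. On 2111 pairs covered in all 10 libraries it was 1.89 points for MLL-AF9 and 0.582 points for cMyc-Bcl2, a difference of 1.31 points (exact two-sided permutation of oncogene labels within genotype, p = 0.03 of 100 arrangements, adjusted p = 0.233 over 10 such tests). The p was 0.05 or above with the 20-read filter, with each position weighted once, with dense windows at 80 positions, with at least 5 positions per window, and without either cMyc-Bcl2 WT library. Read calls numbered 14446933 to 31805256 per library for MLL-AF9 and 28229131 to 46762220 for cMyc-Bcl2. The part of depth in the difference was not tested. The permutation needs like levels in both models within a genotype, which was not tested either, so it cannot decide whether the widening differs.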

How the results depend on the processing

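No paired analysis was possible because the labels give the groups no shared replicate numbers. For the results that answer a comparison, 1365 values under an alternative kept their direction and call, 20 turned, 12 lost a p under 0.05, 13 reached one and 63 counts moved by over 1.5 times. An exact permutation test within 1 model cannot fall below p = 0.1 in MLL-AF9 or 0.333 in cMyc-Bcl2. Its call could not change, and the 1365 hold such values. The mean differences of all shores, of both distances and of shores at 20 to 80% kept direction under every alternative run, in each model and over both. Over both models they also kept a p under 0.05, and that of all shores ran from 2.92 to 4.89 points. The size moved by over 1.5 times only at 20 reads, among these results: in MLL-AF9 to 1.17 points for all shores, 1.07 points at 1 window and 4.34 points at 2 windows, and in cMyc-Bcl2 to 7.63 points at 20 to 80%. Joining the strands left it at 4.44 points. The cause of the changes below was not tested. Depth limits the classes most: at 20 reads 18 MLL-AF9 and 17 cMyc-Bcl2 shores were left at 20 to 80%, and 3 and 5 over 80%.

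At 20 reads the difference over both models was 0.277 points under 5%, 4.41 points over 80% and 3.38 points for the paired step at 20 to 80%, all with a p of 0.05 or above. In cMyc-Bcl2 it turned to -2.71 points over 80%. The gain beyond far windows at 20 to 80% was 0.887 points in MLL-AF9, -2.17 points in cMyc-Bcl2 and -0.639 points over both. Between models, all shores at 20 to 80% gave 1.76 points, the paired step 0.664 points, and the paired step at 20 to 80% 22.5 points with a p under 0.05. Shores without overlap numbered 12 higher and 0 lower in MLL-AF9 and 559 higher and 45 lower in cMyc-Bcl2. The fits called 0 gains in MLL-AF9, 2 gains in the additive fit and 0 larger gains in cMyc-Bcl2 in the interaction. At 5 reads the gain beyond far windows was 0.484 points over both models and 2.10 points at 20 to 80%, with p under 0.05 for each, and 0.60 points at 20 to 80% in MLL-AF9. The cMyc-Bcl2 paired step 2 windows away was -0.0220 points. The additive fit called 217 gains and 1 loss, the interaction 0, and 435 MLL-AF9 shores were higher and 10 lower without overlap.

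The paired step 2 windows away reached a p under 0.05 over both models at 2.48 points with each position weighted once, 3.04 points with dense windows at 80, 1.91 points with at least 5 positions and 2.89 points on windows covered in all 10 libraries. The difference between models in the paired step lost it at 0.737, 0.710 and 0.364 points under the first 3 of these. With dense windows at 40, the gain beyond far windows was 0.908 points over both models and 2.30 points at 20 to 80%, with p under 0.05, and 0.830 points at 20 to 80% in MLL-AF9. The cMyc-Bcl2 paired step 2 windows away was then -0.703 points, and shores at 20 to 80% differed between models by 0.513 points. The MLL-AF9 gain beyond far windows turned to -0.157 points on a shifted grid and -0.0654 points with at least 5 positions, and at 20 to 80% to 0.125 points on windows covered in all 10 libraries. Without chromosomes 6 and 11 it was 0.557 points over both models, with a p under 0.05. Classes from the same model gave 1.57 points over 80%, with a p above 0.05. With at least 5 positions 124 MLL-AF9 shores were higher and 34 cMyc-Bcl2 shores lower without overlap.

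At an adjusted p under 0.1 the fits called 15 gains in MLL-AF9, 79 gains and 2 losses in cMyc-Bcl2, 184 gains and 1 loss in the additive fit, and 5 and 6 shores in the interaction. With no minimum difference the additive fit called 1 loss, and with 20 points 49 gains. One fit of 4 groups, on 2601 shores, called 0 gains in MLL-AF9, and 172 gains and 12 losses in cMyc-Bcl2. With strands joined there were 2 gains in MLL-AF9, 2 losses in the additive fit and 0 interaction calls. On M-values there were 0 gains in MLL-AF9, 4 in the additive fit and 0 interaction calls.

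Leaving out each library in turn gave these ranges. Shores over 80% ran from 2.38 to 3.16 points over both models, with the p at 0.05 without cMyc-Bcl2 WT replicate 1 or knockin replicate 1. The cMyc-Bcl2 paired step 2 windows away ran from -0.591 to 1.17 points, negative without WT replicate 1, and over both models from 2.32 to 3.21 points, with a p under 0.05 without cMyc-Bcl2 WT replicate 2. The gain beyond far windows ran from 0.148 to 0.715 points over both models, and at 20 to 80% in MLL-AF9 from -0.433 to 0.195 points. Between models, the paired step ran from 1.12 to 1.52 points, at 20 to 80% from 3.88 to 5.80 points, and shores at 20 to 80% from -3.35 to 1.22 points. The additive fit called 7 to 137 gains and 0 to 1 losses, the MLL-AF9 fit 0 gains, and the interaction 0 to 2 and 0 to 3. Without overlap, 5 to 15 MLL-AF9 shores and 130 to 210 cMyc-Bcl2 shores were lower. For counts without overlap, the share over all windows was not counted under any alternative.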
